A study of Rattus norvegicus with 24 samples.

Results

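The 10 genes described here, read mainly in monocytes and macrophages, or made by them, were followed through nose and blood of rats that inhaled formaldehyde. They are Cd68, Mpeg1, Csf1r, Csf2ra, Fn1, Tf, Cd14, C1qa, Cd163 and Lyz2, each measured by 1 probe set, out of 14506 named genes on 29214 probe sets. The phagocyte genes were listed by name, and Fn1 and Tf were chosen by their lower signal in exposed blood at 28 days. That comparison is therefore given as a description with no test. The rule named no other comparison, but the members and gene lists were chosen with earlier results of these data known. Male Fischer rats sat in nose-only tubes with 2 ppm formaldehyde, 6 hours daily, through 7 or 28 days. Control rats sat in such tubes with room air for as long. No genetic alteration is given for any group. The tissues were the nasal epithelium of the maxilloturbinate and circulating white blood cells, separated in cell preparation tubes. The 24 Affymetrix arrays made 8 groups of 3, which limits the precision. The labels number the replicates without saying that each came from its own animal, so every p-value measures only the spread between these samples.

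Monocytes are made in bone marrow, circulate in blood and enter tissues, where they can become macrophages. Csf1r and Csf2ra encode receptors for the growth factors M-CSF and GM-CSF, which keep these cells alive and set their maturation. Cd14 hands bacterial lipopolysaccharide to its signalling receptor. Cd68 is a glycoprotein of lysosomes, Mpeg1 encodes perforin-2, a pore former of the phagosome, and Lyz2 encodes lysozyme, which cuts bacterial walls. C1qa encodes a chain of the complement recognition molecule C1q, and Cd163 is a scavenger receptor for haptoglobin-bound haemoglobin, both typical of macrophages in tissue. Fn1 encodes fibronectin, a matrix and plasma glycoprotein that integrins bind, and Tf encodes transferrin, the iron carrier of plasma. The last pair is also made by cells outside this lineage, hepatocytes above all.

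Many macrophage genes are known targets of the transcription factor PU.1. The core of its site, GAGGAA, was sought in the 150 bases before each member's start. On the opposite strand the core reads TTCCTC, and both strands were searched. RefSeq promoter entries of build GRCr8 were matched by gene ID for 9 of the 10 members, without Fn1. The core was found in 5 of the 9, against 14.5% of all 33469 promoters in the same window. In a longer window of 250 bases the same 5 held it, against 23.3% of all promoters. These 5 are shown because they carry the core on either strand, in capitals, each written 5′ to 3′ along the gene and ending at the base before its start.
Csf1r: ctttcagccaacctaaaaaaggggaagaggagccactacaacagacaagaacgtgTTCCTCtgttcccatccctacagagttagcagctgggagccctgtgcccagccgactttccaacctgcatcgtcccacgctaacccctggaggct
Csf2ra: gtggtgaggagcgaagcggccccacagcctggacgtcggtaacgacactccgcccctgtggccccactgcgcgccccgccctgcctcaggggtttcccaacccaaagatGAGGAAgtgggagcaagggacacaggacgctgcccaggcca
Cd14: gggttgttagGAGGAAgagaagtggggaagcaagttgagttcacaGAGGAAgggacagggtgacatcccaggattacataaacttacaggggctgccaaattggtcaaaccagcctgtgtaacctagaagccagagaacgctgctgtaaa
Cd68: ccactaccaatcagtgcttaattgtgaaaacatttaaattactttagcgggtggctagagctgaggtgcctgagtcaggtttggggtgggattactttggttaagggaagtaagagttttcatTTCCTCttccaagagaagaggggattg
Lyz2: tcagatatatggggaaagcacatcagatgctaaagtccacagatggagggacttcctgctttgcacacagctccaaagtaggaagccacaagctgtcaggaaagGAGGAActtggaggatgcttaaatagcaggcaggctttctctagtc
The stretches lie at chr18:56834229-56834378 (plus strand) for Csf1r, chr14:118118-118267 (minus strand) for Csf2ra, chr18:28611159-28611308 (minus strand) for Cd14, chr10:54882442-54882591 (minus strand) for Cd68 and chr7:54798012-54798161 (minus strand) for Lyz2. Counted back from the start, the match began at −95 in Csf1r, −41 in Csf2ra, −27 in Cd68 and −46 in Lyz2. Cd14 held a pair of matches, at −140 and −105. The windows of Mpeg1, Tf, C1qa and Cd163 did not hold these letters, which says nothing of the factor itself, and a match is not a shown binding site.

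All values below are log2 of the deposited intensity, and an increase of 1 is a doubling. The leukocyte and epithelial markers fitted the labelled tissues. The mean of 5 general leukocyte markers was 12.52 to 12.55 on the 7 day control arrays of blood, and the mean of the epithelial markers was 10.99 to 11.09 in nose against 6.61 to 6.72 in blood. The blood arrays also read erythroid and platelet markers (list means of at least 12.50 and 11.90 in 7 day controls). The nose arrays also read olfactory neuron markers, with list means of 8.84 to 10.21 in 7 day controls against 6.62 to 6.68 in blood. How much olfactory lining each nose sample held was not tested. Median intensity was 305 to 312 on the 7 day nose arrays and 163 to 172 on the 28 day ones, and 175 to 181 and 113 to 119 in blood, so levels are not compared between the days. All 10 members passed the filter on dim probe sets, which removed those with a mean below the tissue's percentile 25. C1qa and Cd163 passed it narrowly in blood, with means of 6.44 and 6.18 against a filter level of 5.96. In nose at 28 days control replicate 1 stood apart, with an olfactory neuron marker mean of 7.37 where the 3 exposed arrays read 9.88 to 10.27.

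The 10 genes divided between the tissues in 7 day control rats. Tf, C1qa, Cd14 and Cd163 were higher in nose, and Csf1r, Lyz2, Csf2ra, Cd68 and Mpeg1 were higher in blood, while Fn1 did not pass the test. Over all 20096 probe sets kept in both tissues 58.7% were called higher in nose and 16% lower, with a median difference of 0.41. That split turns with scaling. It was 11796 higher and 3222 lower as deposited, 5477 and 8791 after quantile normalization, and 4191 and 11595 with each array centred on its median, which moved every difference by −0.81. The direction of each of the 9 called members was the same under both scalings and under quantile normalization. Tests are limma's moderated tests, two-sided, with Benjamini-Hochberg adjustment over all probe sets kept, and errors of differences are standard errors from that fit.

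Transferrin had the widest gap. Tf read 13.97, 13.95 and 13.92 on the 3 control nose arrays and 10.34, 10.45 and 10.86 on the 3 blood arrays, a difference of 3.40 ± 0.31 (limma, adjusted p = 2.19e-09), and the groups lay far apart. In nose its mean over all arrays stood at percentile 99.98 of the probe sets. C1qa read 9.34, 9.31 and 9.30 in nose and 6.66, 6.62 and 6.56 in blood (2.70 ± 0.19, limma, adjusted p = 2.56e-11). Cd163 was higher in nose by 1.90 ± 0.14 (limma, adjusted p = 9.14e-11) and Cd14 by 2.38 ± 0.39 (limma, adjusted p = 1.23e-05). The complement and scavenger genes of tissue macrophages and the lipopolysaccharide co-receptor thus read higher in nose, with no overlap of arrays.

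The receptor Csf1r went the other way, at 9.93, 9.82 and 9.91 in nose and 11.58, 11.28 and 11.99 in blood, a difference of −1.73 ± 0.19 (limma, adjusted p = 3.8e-08). Csf2ra differed by −1.39 ± 0.22, Lyz2 by −1.44 ± 0.17 and Cd68 by −1.31 ± 0.23, each with the 3 nose arrays below the 3 blood arrays. Mpeg1 differed by −0.65 ± 0.26 (limma, adjusted p = 0.0289), and leaving out an array ended this call in 4 of 6 cases, with values from −0.93 to −0.38. Fn1 read 10.88, 10.81 and 11.12 in nose and 11.46, 10.70 and 12.15 in blood, and its difference of −0.50 ± 0.47 did not pass (limma, adjusted p = 0.342). With arrays centred on their medians it was −1.31 (limma, adjusted p = 0.0159).

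**Figure D1:**
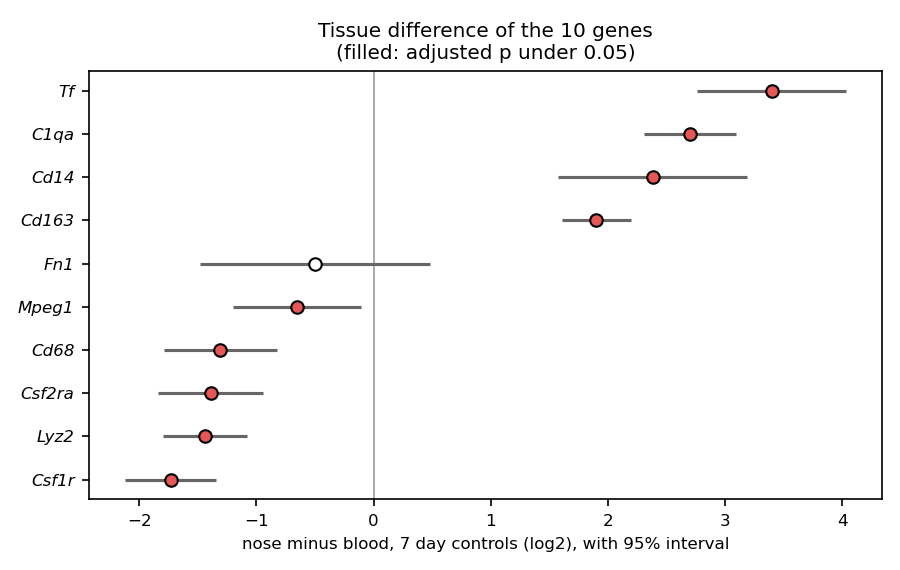
Difference between nose and blood in the 7 day control rats for each of the 10 genes, on the log2 scale of intensity, with 95% intervals from limma (3 arrays per tissue). Points right of 0 were higher in nose. Tf lies farthest right at 3.40 and Csf1r farthest left at −1.73, and Fn1 at −0.50 is the open point that did not pass.

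After 7 days of formaldehyde the phagocyte genes read lower in the nose while Fn1 did not. Of the 10 members 5 passed the test and all 5 were lower: Mpeg1, Lyz2, Csf2ra, Cd163 and Cd68. Over all 21910 probe sets 7.84% were called lower. In 9 of the 10 members every exposed array lay below every control array, against 32.4% of all probe sets, and the median difference was −0.42 for the members and −0.05 for all probe sets. In such bulk samples fewer cells of a type and less RNA per cell cannot be told apart.

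The count rests on few arrays. It fell to 0 without control replicate 1, to 1 without control replicate 3 or exposed replicate 1, and to 2 without control replicate 2 or exposed replicate 2. It was 8 when only the 6 compared arrays set the spread. The sign of all 10 differences was kept in each of these fits.

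Mpeg1 was the member furthest past the threshold. Its values were 8.83, 8.65 and 8.78 in controls and 7.79, 8.21 and 8.21 in exposed rats, with all exposed arrays below all controls. It fell by 0.68 ± 0.13, 1.60-fold (limma, adjusted p = 0.00997). Without control replicate 1 it was no longer called, and over the alternatives its adjusted p ran from 0.00925 to 0.0502.

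Lysozyme showed the same order of arrays. Lyz2 read 11.47, 11.53 and 11.54 in controls and 10.82, 11.11 and 11.09 in exposed rats, and fell by 0.51 ± 0.13 (limma, adjusted p = 0.0272). Cd68 read 8.85, 8.69 and 9.0 in controls and 8.27, 8.37 and 8.52 in exposed rats, and fell by 0.46 ± 0.14 (limma, adjusted p = 0.0491). The haemoglobin scavenger receptor Cd163 read 8.19, 8.17 and 8.25 against 7.80, 7.59 and 7.95, and fell by 0.42 ± 0.12 (limma, adjusted p = 0.0383). None of the 3 genes had overlapping groups. Dropping any 1 array ended the call of Cd68, 5 of the 6 choices ended that of Cd163 and 4 of the 6 that of Lyz2, with values from −0.54 to −0.38, from −0.51 to −0.33 and from −0.56 to −0.42.

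Of the growth factor receptors, Csf2ra read 8.58, 8.40 and 8.68 in controls and 8.11, 8.25 and 8.27 in exposed rats, and fell by 0.35 ± 0.09 (limma, adjusted p = 0.028). Here too the call ended in 4 of 6 cases when an array was dropped, with values from −0.42 to −0.28. Csf1r read 9.93, 9.82 and 9.91 in controls and 9.41, 9.40 and 9.59 in exposed rats. Its difference of −0.42 ± 0.15 did not pass (limma, adjusted p = 0.0816), although the groups did not overlap.

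Cd14 had the largest difference and the widest spread. It read 11.02, 10.71 and 10.87 in controls and 9.27, 10.20 and 10.11 in exposed rats, with exposed replicate 1 lowest. The difference of −1.01 ± 0.38 did not pass (limma, adjusted p = 0.0987). C1qa read 9.30 to 9.34 in controls and 9.01 to 9.09 in exposed rats, a small gap of −0.27 ± 0.15 with little spread at this day (limma, adjusted p = 0.27). The spread in that test is shared with the 28 day arrays, where C1qa varied more.

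Of the secreted proteins, Tf kept the exposed arrays below the controls and Fn1 did not. Tf read 13.97, 13.95 and 13.92 in controls and 13.39, 13.89 and 13.87 in exposed rats, and its difference of −0.23 ± 0.14 did not pass (limma, adjusted p = 0.313). Fn1 read 10.88, 10.81 and 11.12 in controls and 11.06, 10.94 and 11.07 in exposed rats, so that the groups overlapped. Its difference was 0.09 ± 0.13, with a 95% interval from −0.21 to 0.38 (limma, adjusted p = 0.733).

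**Figure D2:**
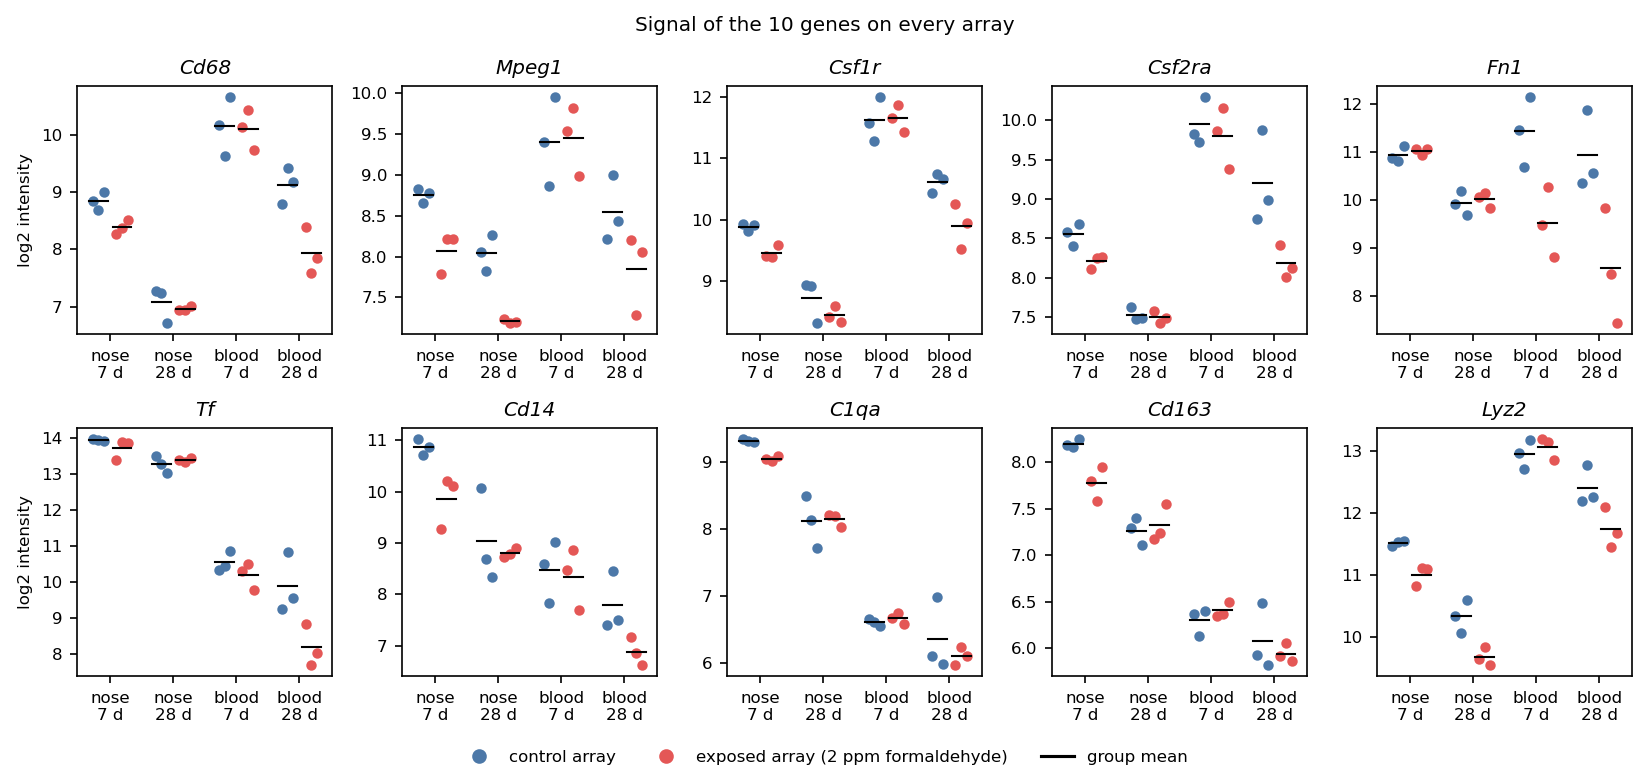
Log2 intensity of the 10 genes on each of the 24 arrays, by tissue and day, with controls and exposed rats side by side and a bar at each mean of 3 arrays. Each panel has its own axis, and the days are on different scales. In nose at 7 days all genes but Fn1 have the exposed arrays below the controls. In blood at 7 days only Fn1 does, and at 28 days all but C1qa and Cd163.

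The wider lists of genes around the members moved in the same direction in nose at 7 days. Among the other monocyte and macrophage genes 13 of 25 tested were lower and 0 higher, with a median of −0.37. They included Fcgr2b, an inhibitory Fc receptor (−0.69 ± 0.12, limma, adjusted p = 0.00716), the lysosomal protease Ctss (−0.59 ± 0.11) and Tyrobp, an adaptor of activating receptors (−0.49 ± 0.11). The count was 2 without control replicate 1, 3 without control replicate 3 or exposed replicate 1, and 7 without exposed replicate 2.

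Around the growth factor receptors 4 of 12 signalling genes were lower and 0 higher. Csf2rb, the shared beta chain that pairs with Csf2ra, fell from 8.76 to 7.89, by 0.87 ± 0.12 (limma, adjusted p = 0.0028), and kept this call in all 15 alternatives. The others were Irf8, a transcription factor of monocyte development (−0.72 ± 0.12), Inpp5d (−0.63 ± 0.11) and Stat5a (−0.55 ± 0.16). Around Cd14, 4 of 9 genes of lipopolysaccharide sensing were lower and 0 higher: the receptor Tlr4 (−0.74 ± 0.15, limma, adjusted p = 0.0119), its partner Ly96 (−0.74 ± 0.19), Cd180 (−0.58 ± 0.12) and Lbp (−0.33 ± 0.09). That count was 0 without control replicate 1, 1 without exposed replicate 1 and 2 without control replicate 2.

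Around C1qa, 7 of 9 complement genes were lower and 0 higher, among them the C1 proteases C1s (−0.45 ± 0.08) and C1r (−0.47 ± 0.08) and their inhibitor Serping1 (−0.42 ± 0.09). Around Tf and Cd163, 7 of 19 genes of iron and haemoglobin handling were lower and 0 higher, including the ferroxidase Cp (−1.08 ± 0.23), haptoglobin Hp (−0.67 ± 0.14) and the exporter Slc40a1 (−0.46 ± 0.11). Around Fn1, 6 of 15 receptor and matrix genes were lower and 0 higher, with the integrin chains Itga4 (−0.76 ± 0.11) and Itga5 (−0.60 ± 0.13) and the matrix genes Fbn1 (−0.61 ± 0.11) and Col3a1 (−0.62 ± 0.17). Fn1 itself was not among the genes that passed. Without control replicate 1 the last 3 counts were 3, 1 and 2. Without control replicate 3 they were 3, 3 and 2, without exposed replicate 1 they were 3, 1 and 2, and the complement count was 4 without exposed replicate 2.

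Markers of several other cells were lower with these genes, and other lists were flat, mixed or higher. The leukocyte markers Ptprc, Coro1a and Cd53 were lower (3 of 5, list mean 9.43 to 9.61 in controls and 8.85 to 9.08 in exposed rats). Of the endothelial markers 8 of 9 were lower (list mean 9.37 to 9.66 against 8.66 to 9.0), and of the fibroblast markers 5 of 9 (10.81 to 11.03 against 10.06 to 10.55). Erythroid markers were lower in 3 of 6, Hbb (−1.36 ± 0.29), Alas2 (−1.16 ± 0.20) and Slc4a1 (−0.52 ± 0.10), with overlapping list means of 8.24 to 8.56 in controls and 7.82 to 8.31 in exposed rats. T cell markers were lower in 3 of 7 (7.68 to 7.91 against 7.41 to 7.48), a count of 0 without control replicate 1 or 3 or exposed replicate 1. The list means of B cell markers (7.20 to 7.40 against 7.02 to 7.05) and NK cell markers (7.43 to 7.62 against 7.14 to 7.19) did not overlap either. Neutrophil markers had 0 of 6 called, a median of −0.09 and 0 at an unadjusted p under 0.05. Platelet markers had 1 of 6 lower and 1 higher, calls that both ended without control replicate 1. Of the hepatocyte markers 1 of 3 was higher, of the glia markers 0 of 3 were called, and of the epithelial markers 1 of 7 was lower. Olfactory neuron markers were higher in 5 of 10, with a median of 1.96 and list means of 8.84 to 10.21 in controls and 11.41 to 11.78 in exposed rats. With control replicate 1 or exposed replicate 1 left out, 3 endothelial and 2 olfactory markers were called, and 1 or 2 fibroblast markers. Without control replicate 3 these counts were 5, 3 and 2, and the olfactory count was 3 without exposed replicate 2 or 3. Without exposed replicate 2 the fibroblast count was 3. The part of tissue composition in the members' values was not tested.

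In nose at 28 days only Mpeg1 and Lyz2 kept separate groups, and no member passed the test at an adjusted p under 0.05, where 0.00456% of all probe sets were called lower. Mpeg1 and Lyz2 had every exposed array below every control array, 2 of 10 members against 8.7% of all probe sets. The median difference of the members was −0.07, against 0.01 for all probe sets. At an unadjusted p under 0.05 these 2 members were the only ones of the 10, beside 15.4% of all probe sets.

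Mpeg1 read 8.05, 7.82 and 8.26 in controls and 7.24, 7.19 and 7.20 in exposed rats, with the exposed arrays almost equal. The difference was −0.83 ± 0.13, 1.78-fold (limma, unadjusted p = 6.04e-05, adjusted p = 0.0793). Lyz2 read 10.34, 10.06 and 10.59 in controls and 9.64, 9.83 and 9.55 in exposed rats, a difference of −0.65 ± 0.13 (limma, adjusted p = 0.106). Both passed when control replicate 1 was left out (adjusted p = 0.019 and 0.0419) or control replicate 2 (0.0436 for both), and Mpeg1 also after quantile normalization (0.0455). Over all alternatives the adjusted p ran from 0.019 to 0.576 for Mpeg1 and from 0.0419 to 0.577 for Lyz2.

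The other 8 members overlapped between the groups. Csf1r read 8.95, 8.93 and 8.33 in controls and 8.43, 8.60 and 8.35 in exposed rats (−0.28 ± 0.15, limma, adjusted p = 0.401). Cd14 read 10.08, 8.69 and 8.33 in controls and 8.73, 8.79 and 8.90 in exposed rats, and its difference of −0.23 ± 0.38 became 0.30 without control replicate 1, the array at 10.08. Cd68, Csf2ra, C1qa, Cd163, Fn1 and Tf differed by −0.11 to 0.12. The intervals of these 6 reached no further than −0.42 and 0.43, so a fall such as that of Mpeg1 lies outside them.

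Of the other monocyte and macrophage genes 0 of 25 passed in limma in nose at 28 days, and 13 had an unadjusted p under 0.05, beside the 15.4% of all probe sets given above. Of their differences 23 of 25 were negative and the median was −0.29. Without control replicate 1 the count was 5 lower, and without control replicate 2 it was 3. The other lists around the members had 0 calls as well, and at an unadjusted p under 0.05 there were 5 of 12 genes of colony stimulating factor signalling, 2 of 9 of lipopolysaccharide sensing, 5 of 9 of complement, 4 of 19 of iron handling and 4 of 15 around fibronectin. All 9 complement differences were negative. Beside them, all 9 fibroblast differences were negative (list mean 9.56 to 9.93 in controls and 9.27 to 9.38 in exposed rats), and the leukocyte list mean was 8.34 to 8.41 against 8.10 to 8.16. Without control replicate 1, 2 complement genes, 2 colony stimulating factor genes and 1 iron gene were called lower and 1 iron gene higher. Without control replicate 2, 1 gene of lipopolysaccharide sensing was called lower.

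Whether the nasal difference itself changed from 7 to 28 days was tested as an interaction. No member passed in limma, with 0.1% of probe sets called lower at 28 days and 0% higher. At an unadjusted p under 0.05, which 13.6% of all probe sets met, there were 2 members: Cd163, at 0.48 ± 0.17 (limma, adjusted p = 0.324), and Csf2ra, at 0.31 ± 0.13 (limma, adjusted p = 0.344). Both had been lower in exposed nose at 7 days. For Mpeg1 the change was −0.15, with a 95% interval from −0.56 to 0.26, and for Lyz2 −0.14, from −0.56 to 0.27. Cd14 passed only without the 28 day control replicate 1, at 1.31 in place of 0.78 (limma, adjusted p = 0.0336).

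Over the 12 nose arrays, with the mean of each day removed, the genes most like Mpeg1 were Lilrb4 (r = 0.985), Glipr1 (0.981), Fuca1 (0.979), Ppt1 (0.978) and Pde3b (0.978), of 12210 named genes. Lyz2 was the member nearest to it, at rank 23 (0.966), and Fn1 the farthest (−0.424). Lilrb4, an inhibitory receptor of myeloid cells, differed between exposed and control nose by −0.54 at 7 days and −0.64 at 28 days. These correlations share the arrays and the exposure groups and are descriptions with no test.

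In blood at 7 days Fn1 was the 1 member with separate groups, a share no larger than that of all probe sets. No member passed the limma test, where 0.365% of probe sets were called lower and 0.11% higher. At an unadjusted p under 0.05 there was 1 of 10 members, beside 15.1% of all probe sets. Fn1 was the 1 member of 10 with every exposed array below every control array, against 10.4% of all probe sets. The other 9 differed by −0.34 (Tf) to 0.11 (Lyz2), and the median of the 10 was −0.01 against 0.04 for all probe sets.

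Fn1 read 11.46, 10.70 and 12.15 in controls and 9.47, 10.27 and 8.81 in exposed rats. Controls were higher throughout, but the arrays of each group were spread over more than a doubling, with an SD of 0.72 and 0.73. The difference was −1.92 ± 0.59, 3.79-fold, with a 95% interval from −3.21 to −0.63 (limma, unadjusted p = 0.00696, adjusted p = 0.151). It lay between −2.30 and −1.56 with any 1 array left out, and its adjusted p ran from 0.0599 to 0.405 over the alternatives without a covariate.

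The phagocyte genes showed no such gap. Csf1r read 11.58, 11.28 and 11.99 in controls and 11.66, 11.87 and 11.43 in exposed rats (0.04 ± 0.20). Lyz2 read 12.97, 12.71 and 13.18 against 13.19, 13.15 and 12.85 (0.11 ± 0.19). Cd14 read 8.59, 7.84 and 9.02 against 8.48, 8.86 and 7.70 (−0.14 ± 0.35). The groups of all 3 overlapped. Cd68 (−0.05 ± 0.27), Mpeg1 (0.04 ± 0.32), Csf2ra (−0.15 ± 0.27), C1qa (0.05 ± 0.20) and Cd163 (0.10 ± 0.15) overlapped too. Tf, the other secreted member, read 10.34, 10.45 and 10.86 in controls and 10.32, 10.51 and 9.79 in exposed rats, a difference of −0.34 ± 0.37 (limma, adjusted p = 0.733).

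**Figure D3:**
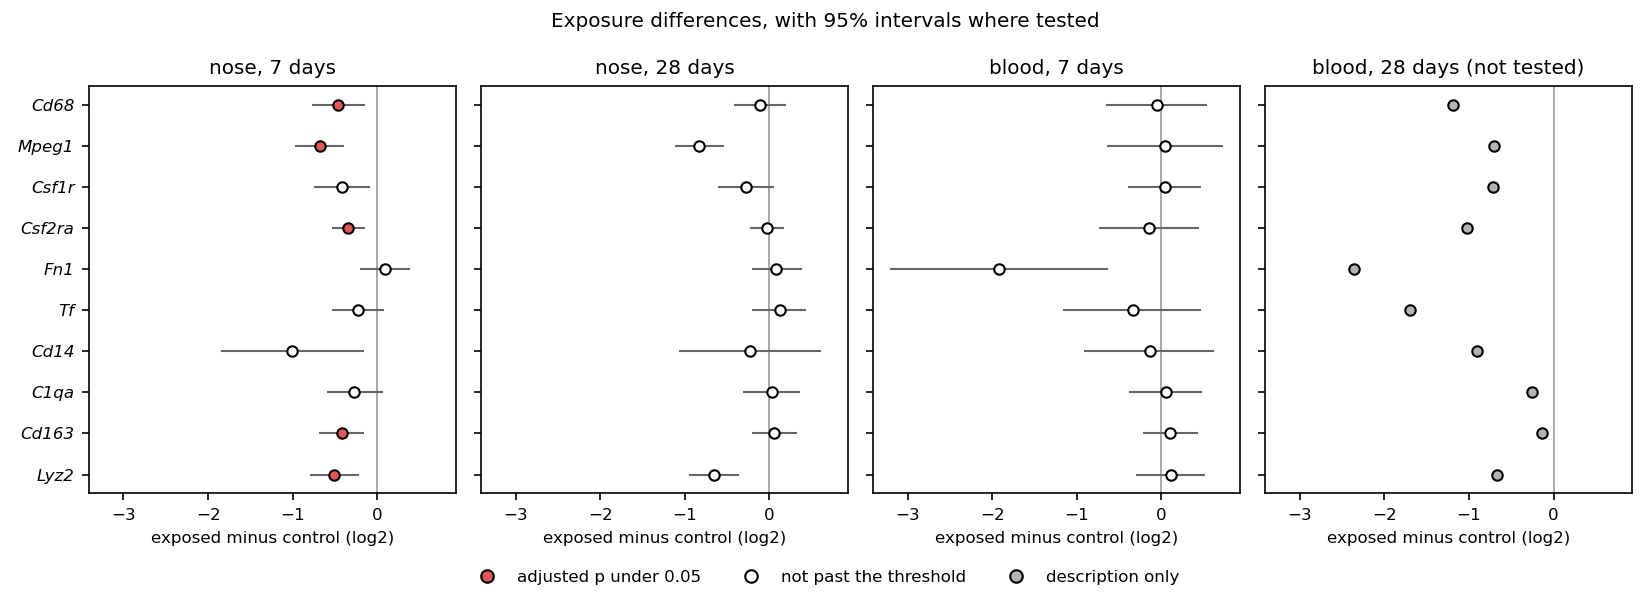
Exposed minus control difference of each of the 10 genes on the log2 scale, by tissue and day, with 95% intervals from limma where tested (3 arrays per group). Filled red points passed at an adjusted p under 0.05, open points did not, and grey points in blood at 28 days are a description. Fn1 lies at 0.09 and 0.08 in nose and at −1.92 and −2.36 in blood.

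Within blood the phagocyte genes went up and down together from array to array. Of Cd68, Mpeg1, Csf1r, Csf2ra, Cd14 and Lyz2, all 6 were highest on control replicate 3 and lowest on control replicate 2 at 7 days. Among the exposed arrays 5 of the 6 were highest on replicate 2 and all 6 lowest on replicate 3. Their mean was 10.42, 10.01 and 10.85 on the control arrays and 10.48, 10.71 and 10.01 on the exposed ones, or 10.43 ± 0.42 against 10.40 ± 0.36 (SD, n = 3). Fn1 kept the same order of arrays within each group, but at a lower level in exposed rats. Set against that mean on its own array, Fn1 changed from 1.03, 0.70 and 1.30 in controls to −1.01, −0.44 and −1.21 in exposed rats, with no overlap. The same for Tf was −0.08, 0.44 and 0.01 in controls and −0.16, −0.20 and −0.22 in exposed rats. Such a gap within an array shows an unequal difference of probe sets and not that either is unchanged.

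A fit with that 6-gene mean as a covariate was chosen after seeing the data. In it the 7 day difference of Fn1 in blood was −1.87 ± 0.33 (limma, adjusted p = 0.0285). With single arrays dropped the call held in 1 of 6 cases, without control replicate 1 (adjusted p = 0.0463). In the other 5 the adjusted p was 0.0681 to 0.206, and the values of all 6 lay between −1.96 and −1.77. Tf in that fit differed by −0.31 (limma, adjusted p = 0.479). Over all probe sets the fit called 214 lower and 120 higher at 7 days, against 80 and 24 without the covariate.

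**Figure D4:**
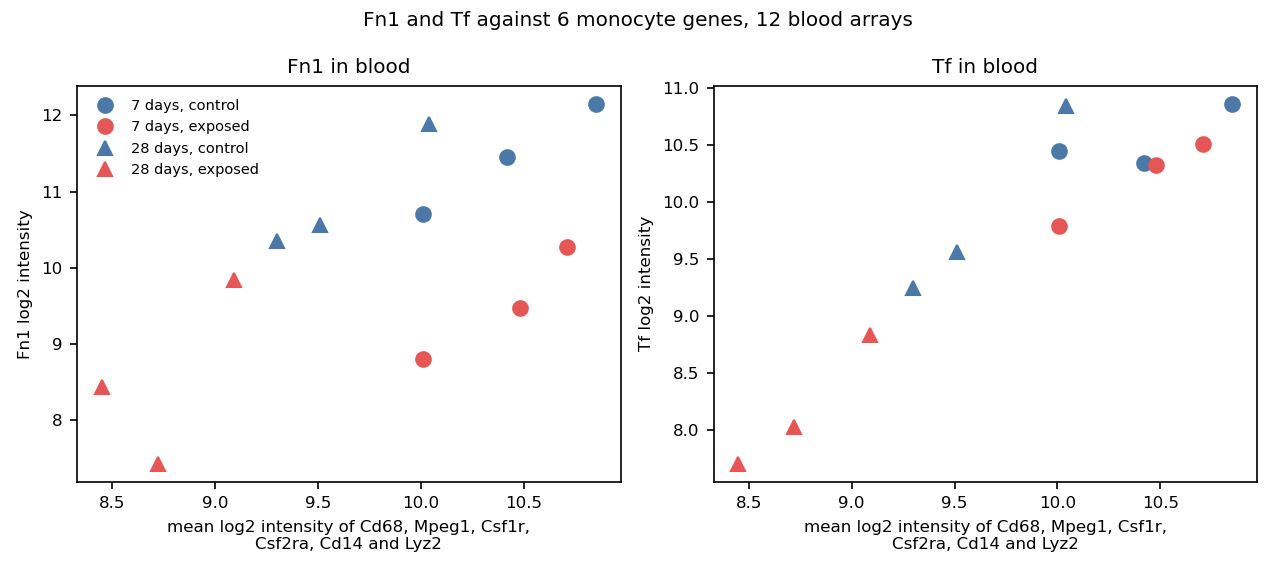
Log2 intensity of Fn1 (left) and Tf (right) on each of the 12 blood arrays against the mean log2 intensity of 6 phagocyte genes on the same array. Circles are 7 day and triangles 28 day arrays, blue controls and red exposed rats. At 7 days the 3 exposed Fn1 points (8.81 to 10.27) lie under the 3 controls (10.70 to 12.15) over the same range of the 6-gene mean, while the Tf points of both groups mix.

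The lists around the members were mostly flat in blood at 7 days. Of the other monocyte and macrophage genes 0 of 26 passed in limma, with a median of 0.08 and 5 at an unadjusted p under 0.05. In limma 0 genes passed of colony stimulating factor signalling, lipopolysaccharide sensing, complement, iron handling and fibronectin's receptors and partners, where 2, 1, 0, 5 and 0 had an unadjusted p under 0.05, beside 15.1% of all probe sets. Erythroid markers separated the groups as Fn1 did, with a list mean of 12.50 to 12.87 in controls and 12.02 to 12.31 in exposed rats. Of the 7, 6 differences were negative with a median of −0.50, 0 passed in limma and 5 had an unadjusted p under 0.05. The neutrophil list mean was 7.71 to 8.61 in controls and 7.02 to 7.72 in exposed rats, so that the groups just overlapped. Of its 11 differences 10 were negative, 1 had an unadjusted p under 0.05, and Ngp, a neutrophil granule protein, was called lower (−1.75 ± 0.31, limma, adjusted p = 0.0414). That call held without exposed replicate 3 and ended without any of the other 5 arrays. The NK cell list mean was 10.49 to 10.75 in controls and 11.09 to 11.27 in exposed rats, and Gzmb was called higher (0.70 ± 0.13, limma, adjusted p = 0.0465), a call that ended without any 1 of the 6 arrays. Markers of hepatocytes, which make plasma fibronectin and transferrin, had list means of 6.22 to 6.25 in controls and 6.23 to 6.31 in exposed rats. The part of the other blood cells in the Fn1 values was not tested.

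The 7 day exposure difference was compared between nose and blood for each member. No member passed in limma, where 5.1% of probe sets were called higher in nose and 5.65% lower. At an unadjusted p under 0.05 there were 3 of 10 members, near the 26.9% of all probe sets. Fn1 was nearest, with a nose difference above the blood difference by 2.01 ± 0.66 and a 95% interval from 0.63 to 3.39 (limma, adjusted p = 0.0557). It passed without blood control replicate 2 (2.37, adjusted p = 0.0445), without blood exposed replicate 2 (2.39, adjusted p = 0.0389) and when only the compared arrays set the spread (adjusted p = 0.0152), and over all alternatives the adjusted p reached 0.142. Cd163 differed the other way by −0.53 ± 0.20 (limma, adjusted p = 0.0924), and Lyz2 by −0.62 ± 0.24 (limma, adjusted p = 0.104).

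In blood at 28 days, the comparison that entered the choice of members, all 10 differences were negative and the values are a description. Of the 10 members 8 had every exposed array below every control array, all but C1qa and Cd163, beside 9.03% of all probe sets, and 1.31% of probe sets were called lower. The median was −0.81 for the members and −0.02 for all probe sets. Every value carries control replicate 2, on which all 6 phagocyte genes of the mean above, Fn1 and Tf were highest.

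Fn1 read 10.35, 11.89 and 10.56 in controls and 9.84, 8.44 and 7.43 in exposed rats, a difference of means of −2.36. Tf read 9.24, 10.84 and 9.56 in controls and 8.83, 7.70 and 8.02 in exposed rats, a difference of −1.70. Neither gene overlapped between the groups. Without control replicate 2 the differences were −1.88 and −1.22, and that of Fn1 was nearest to 0 without exposed replicate 3, at −1.79.

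Cd68 read 8.79, 9.42 and 9.18 in controls and 8.39, 7.59 and 7.86 in exposed rats (−1.19). Csf2ra read 8.74, 9.87 and 8.99 against 8.42, 8.01 and 8.13 (−1.02). Cd14 read 7.41, 8.45 and 7.50 against 7.17, 6.85 and 6.63 (−0.91). Exposed replicate 1 was the highest exposed array for all 3, nearest to the controls. Csf1r read 10.44, 10.75 and 10.67 against 10.25, 9.52 and 9.95 (−0.71). Mpeg1 read 8.21, 9.0 and 8.43 against 8.20, 7.28 and 8.06 (−0.70), with the groups parted by 0.01. Lyz2 read 12.20, 12.77 and 12.26 against 12.09, 11.45 and 11.68 (−0.67).

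The tissue macrophage genes behaved otherwise in blood. C1qa read 6.11, 6.99 and 5.99 in controls and 5.98, 6.25 and 6.11 in exposed rats (−0.25), and Cd163 read 5.92, 6.49 and 5.82 against 5.91, 6.05 and 5.86 (−0.14). Their groups overlapped at levels near the filter. Without control replicate 2 their differences were 0.06 and 0.07.

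The 6-gene mean was 9.62 ± 0.38 in controls and 8.75 ± 0.32 in exposed rats at 28 days (SD, n = 3). Against it, Fn1 stood at 1.05, 1.85 and 1.06 in controls and at 0.75, −0.01 and −1.28 in exposed rats, and Tf at −0.06, 0.79 and 0.06 against −0.26, −0.75 and −0.70. With the mean as a covariate the differences of Fn1 and Tf were −0.60 ± 0.465 and −0.57 ± 0.281, in place of −2.36 and −1.70. That mean is made of members and was itself lower in exposed rats here. Smaller differences were therefore built into this fit, which cannot separate Fn1 and Tf from the mean. At 7 days the 6-gene mean was level between the groups and Fn1 read lower, though it did not pass in limma without a covariate. At 28 days both were lower. The days were not tested against each other here because the 28 day values entered the choice of members.

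Among the lists in blood at 28 days, which share these arrays, 2 of 26 other monocyte and macrophage genes were lower: C5ar1, the receptor of complement C5a (−1.41), and Spi1, which encodes PU.1 (−0.92). Both calls ended without control replicate 2 or 3 or exposed replicate 2 or 3, with values of −0.90 and −0.66 without control replicate 2. They also ended after median centring, with no filter, with the intensity trend and robust prior, with the replicate number as a block, and with only the compared arrays. Of the complement genes 3 of 8 were lower (C3 at −1.08, Cfp at −1.01 and C5ar1), none of which was called without any 1 of those 4 arrays. Lbp, which loads lipopolysaccharide onto Cd14, was lower (−1.26) and was not called when control replicate 3 or exposed replicate 2 or 3 was dropped. The endocytic receptor Lrp1 was lower (−1.37), and dropping any of those arrays or control replicate 2 ended its call. The calls of the complement genes, Lbp and Lrp1 also ended with the block and with only the compared arrays. In the same list of iron and haemoglobin handling Slc40a1, the iron exporter, was higher (0.52). That call held with any 1 array left out but ended when only the compared arrays set the spread. In colony stimulating factor signalling, which also holds Spi1, the kinase Jak2 was higher (0.38), and its call ended without control replicate 1 or 3 or exposed replicate 2 or 3. Of the fibronectin receptors and partners 3 of 16 were higher and 0 lower: Itgb1 (0.59), F13a1 (0.54) and Thbs1 (0.53), all of them also made by platelets. The count higher was 1 with the replicate number as a block and 1 at an unadjusted p under 0.005 with 1.5-fold. It was 0 when only the compared arrays set the spread. Over all probe sets 1.31% were called lower and 3.95% higher. With only the compared arrays, 1 probe set was called lower and 0 higher.

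Markers of other blood cells differed in both directions at 28 days. The neutrophil list mean was 6.95 to 8.44 in controls and 6.21 to 6.71 in exposed rats, with 9 of 11 differences negative. Its 1 call lower ended without control replicate 2 or 3 or exposed replicate 2 or 3. The erythroid list mean overlapped, at 11.37 to 11.91 against 11.35 to 11.82. Platelet markers were higher in 3 of 6 (list mean 11.19 to 11.31 against 11.48 to 11.76), a count of 1 without control replicate 1 or 3 or exposed replicate 2, and NK cell markers in 4 of 7 (9.90 to 10.12 against 10.39 to 10.79), a count of 2 without control replicate 1 or 3 or exposed replicate 3. When only the compared arrays set the spread, no neutrophil, platelet or NK cell marker was called. Of the B cell markers 5 of 5 differences were negative and of the T cell markers 8 of 10, with 0 called in either list. Leukocyte markers read 11.87 to 11.97 in controls and 11.72 to 11.92 in exposed rats. The part of these shifts in the members' values was not tested.

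Over the 12 blood arrays, with the mean of each day removed, the genes most like Fn1 were Vcan (r = 0.969), Lrp1 (0.957), Rxra (0.943), Itgb7 (0.942) and Notch2 (0.941), of 11716 named genes. Vcan encodes versican, a matrix proteoglycan that blood monocytes make. It read 8.84, 8.06 and 9.54 in 7 day controls and 8.02, 8.52 and 7.38 in exposed rats (−0.84), with overlap, and 7.72, 8.82 and 8.01 against 7.57, 6.53 and 6.28 at 28 days (−1.39), without overlap. Lrp1 read 9.98, 9.76 and 10.82 against 9.09, 9.35 and 8.71 at 7 days (−1.14) and 8.89, 9.53 and 9.27 against 8.37, 7.53 and 7.66 at 28 days (−1.37), with no overlap at either day.

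The genes most like Tf were Vsir (r = 0.994), Oaf (0.990), Lbp (0.985), Ets2 (0.985) and C5ar1 (0.984). Their differences at 7 days were −0.24 to −0.04 with overlapping groups, and at 28 days −1.41 to −0.48 without overlap. Csf2ra was the member nearest to Tf, at rank 9 (0.971), and Fn1 came at rank 161 (0.861). For Fn1 the nearest member was Tf, at rank 84 (0.861), and Cd163 was the farthest (0.328). All these correlations share 12 arrays and their exposure groups, and are descriptions with no test. The arrays include the 28 day ones whose values chose Fn1 and Tf. Lower values of these like genes in exposed rats at 28 days were therefore partly built into the ranking. Over all probe sets 9.03% had every exposed array below every control array at 28 days.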

How the data were processed

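Messenger RNA of nasal epithelium and circulating leukocytes was hybridised to 24 Affymetrix arrays, 3 in each of 8 groups taken from the sample titles. The values deposited by the authors are probe set intensities on a linear scale, 1 for each array. The submitters' processing notes name Partek. How background, summarization and normalization were handled, and with which version, is not stated in those sources. Here log2 of the deposited intensity was taken without rescaling. Of 29214 probe sets 15310 carried 1 gene symbol in the platform's table, 323 several and 13581 none. Each member had 1 probe set, so probe sets of a member were not averaged.

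Probe sets with a tissue mean at or above percentile 25 were kept, 21910 per tissue and 20096 shared. The limma package 3.58.1 under R 4.3.3 (lmFit, contrasts.fit, eBayes) was run on the 12 arrays from a tissue, or on all 24 across tissues, two-sided, with Benjamini-Hochberg adjustment over all probe sets kept and a threshold of 0.05. The code was tested on simulated data. The members and gene lists were chosen with earlier results of these data known. Named genes were the 10 members, at most 4 called genes per list and comparison with the largest moderated statistic, and the 5 genes most like Fn1 and Tf in blood and Mpeg1 in nose; values of other genes called were counted only. A gene of a list was represented by its probe set of the highest mean.

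Residuals of same-numbered control and exposed arrays correlated at 0.133, 0.134 and 0.19 in nose at 28 days, each above 0.1, so the numbers may pair the arrays there. In the other 3 tissue-day sets the correlation was −0.301 to 0.089, and the labels give no pairing. The alternatives were the scaling (quantile, median centring), the filter (none, median), the prior (intensity trend and robust), the threshold, a replicate block, only the arrays compared, and each array left out; a covariate, the mean of 6 phagocyte genes, was added after seeing the data. Figures were drawn with matplotlib 3.10.9.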

Additional observations from a re-analysis of the deposited data

Results flagged for a closer look

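Transferrin had opposite directions in the tissues at 28 days: the difference between exposed and control rats was 0.12 in nose and −1.70 in blood. Cd163 had opposite directions in blood on the 2 days, at 0.10 after 7 days and −0.14 after 28 days, at levels near the filter on dim probe sets. Both pairs were picked out because all arrays of a comparison lay to one side of the other group's mean and those of the second comparison to the other side. Neither difference was tested, since the 28 day blood values entered the choice of members.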

How the results depend on the processing

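In nose at 7 days the count of 5 members called lower was 3 after quantile normalization, 3 with the filter at the median (which dropped Cd68 and Cd163), 1 at an unadjusted p under 0.005 with a 1.5-fold difference, 8 with only the compared arrays and 0 to 4 with any 1 array left out. With the replicate number as a block it was 1. The labels do not say whether the numbers pair the arrays, and residuals of same-numbered arrays correlated at −0.13 to −0.012 there. With that block no member changed its call in the other exposure comparisons, and in nose at 28 days, where the numbers may pair, the adjusted p of Mpeg1 and Lyz2 was 0.248. In nose at 28 days the count of 0 was 1 after quantile normalization, 1 at an adjusted p under 0.1, 2 at an unadjusted p under 0.005 with 1.5-fold and 0 to 2 with an array left out. For the difference between days in nose it was 0 to 1 with an array left out. For nose minus blood at 7 days, the counts lower and higher in nose, both 0, were 1 and 1 at an adjusted p under 0.1 and 3 and 1 with only the compared arrays, and the higher count was 0 to 1 with an array left out. With the 6-gene covariate, chosen after seeing the data, Fn1 and Tf differed by −0.60 and −0.57 in blood at 28 days. The covariate was itself lower in exposed rats there. At 7 days C1qa turned in that fit to −0.054 without control replicate 3 and Cd163 to −0.0066 without exposed replicate 3. Members near 0 changed sign when arrays were left out. In nose at 28 days the ranges were −0.0729 to 0.013 for Csf2ra, −0.0377 to 0.209 for Fn1, −0.0008 to 0.2263 for Tf, −0.5782 to 0.3003 for Cd14, −0.1693 to 0.218 for C1qa and −0.053 to 0.1293 for Cd163. In blood at 7 days they were −0.3144 to 0.1999 for Cd68, −0.2274 to 0.3181 for Mpeg1, −0.1304 to 0.2217 for Csf1r, −0.326 to 0.0579 for Csf2ra, −0.463 to 0.1828 for Cd14 and −0.0127 to 0.2269 for Lyz2. Cd163 in blood at 28 days ran from −0.2644 to 0.0691. For the difference between days in nose they were −0.0615 to 0.2513 for Csf1r and −0.1251 to 0.1216 for Fn1, and for nose minus blood at 7 days −0.0965 to 0.2748 for Tf. The cause of these changes was not tested beyond the fewer arrays or genes in each fit. Over all probe sets, calls lower and higher in nose at 7 days (1717 and 1847) were 701 and 1094 with the block, 1182 and 1185 with the median filter, 3503 and 2797 with only the compared arrays, 2766 and 2440 at an adjusted p under 0.1 and 589 and 1123 at an unadjusted p under 0.005 with 1.5-fold. With an array left out they were 252 to 1317 and 546 to 1406. In nose at 28 days (1 and 0) they were 38 and 4 after quantile normalization, 65 and 8 at an adjusted p under 0.1, 135 and 72 at an unadjusted p under 0.005 with 1.5-fold, 0 and 0 with the block, and 0 to 615 and 0 to 466 with an array left out. In blood at 7 days (80 and 24) they were 205 and 59 after quantile normalization, 41 and 14 with no filter, 136 and 43 with the median filter, 2 and 0 with the block, 245 and 218 with only the compared arrays, 330 and 207 at an adjusted p under 0.1, 166 and 78 at an unadjusted p under 0.005 with 1.5-fold, 214 and 120 with the covariate, and 2 to 64 and 0 to 51 with an array left out. In blood at 28 days (288 and 866) they were 177 and 836 after median centring, 183 and 747 with no filter, 47 and 345 with the block, 1 and 0 with only the compared arrays, 0 and 1 with the covariate, 596 and 1137 at an adjusted p under 0.1, 127 and 522 at an unadjusted p under 0.005 with 1.5-fold, and 67 to 374 and 530 to 885 with an array left out. For the difference between days in nose (22 and 0) they were 1 to 286 and 0 to 91 over the settings that kept all arrays, and 1 to 1274 and 0 to 1366 with an array left out. For nose minus blood at 7 days (1136 and 1025) they were 586 to 3528 and 525 to 1984, and 379 to 1160 and 442 to 986 with an array left out. With 3 arrays per group the signal of C1qa and Cd163 in blood, near the filter level, limits what their values can show.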
